A study of Zea mays with 4 samples.

Results

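The genes described are 7 maize (Zea mays) cellulose synthases of the primary cell wall type, CesA-1 (LOC541802), cesa2 (LOC542564), cesa3 (LOC542489), cesa5 (LOC541803), cesa6 (LOC541804), cesa7 (LOC541805) and cesa8 (LOC541806). They were chosen by name: every probe set that the annotation of the Affymetrix maize array assigns to 1 of these genes was taken. A probe set is a group of short probes on the array that together report 1 transcript, and each of the 7 genes had 1 probe set, so 7 of 17734 probe sets, and 7 of the 1108 genes that the annotation names, are members. All 7 were bright enough to enter the test, with a log2 signal of at least 4 on at least 2 arrays, which covered 11242 probe sets.

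Total RNA came from 2 inbred lines, F98902 and Cm489, with 2 arrays each, in a series on the diversity of the maize cell wall. Both lines were grown in soil at 50% humidity, by the labels, under a cycle of 16 h light and 8 h dark with natural light, and aerial material at the flower development stage was taken. No treatment, transgene or mutation is given for either line. The labels name no organ and do not explain the code in each sample title, and whether separate plants stand behind the arrays of each line is not stated. The p-values then measure the spread between these samples, which may be technical.

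Cellulose synthases sit in the plasma membrane in rosette-shaped complexes, where each catalytic subunit uses UDP-glucose to extend a chain of glucose that is then packed with others into a microfibril. Plants use different sets of subunits for the thin primary wall laid down while a cell grows and for the thick secondary wall laid down after growth has stopped. In maize, cesa10, cesa11 and CesA12 are the known secondary wall set, found in vessels and fibres of the stem. Each member here encodes a catalytic subunit of the other kind, and mixtures of several of them are thought to work together in 1 complex.

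All values are log2 signals, so a difference of 1 is a doubling. Levels of different probe sets are not set against each other, since probes differ in brightness. In bulk tissue, fewer cells of a type and less RNA per cell cannot be told apart.

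All 7 members had a lower mean in F98902 than in Cm489, but none passed the test. A lower mean in F98902 was found for 51.2% of all tested probe sets. The median difference of the members, F98902 minus Cm489, was -0.94, beside -0.02 over all tested probe sets. The size of the difference varied widely among the members, with cesa2 at -1.67 and cesa7 at -0.13.

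The clearest separation of the lines was in cesa2. Its signal was 11.77 and 11.02 in F98902, against 12.73 and 13.39 in Cm489. Both F98902 arrays lay below both Cm489 arrays, and the difference was larger than the gap between the arrays of either line. The means were 11.39 ± 0.53 in F98902 and 13.06 ± 0.47 in Cm489 (SD, n = 2 each), a difference of -1.67 (SE 0.52, limma adjusted p = 0.396). On the linear scale this is 0.314 times the Cm489 signal. The 95% interval ran from -3.12 to -0.22 and is not adjusted for the number of probe sets tested. It was the 1 member with an unadjusted p under 0.05 in limma, which 10.5% of all tested probe sets reached.

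CesA-1 had the same order of arrays. Its signal was 12.20 and 12.01 in F98902, against 12.73 and 13.36 in Cm489, so the lines did not overlap. The F98902 arrays of this gene were nearly equal, and the Cm489 arrays were further apart. The difference was -0.94 (SE 0.45, limma adjusted p = 0.654), with a 95% interval from -2.19 to 0.32.

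The third member with separate lines was cesa8, by a narrow margin. Its signal was 11.53 and 10.38 in F98902, against 11.63 and 12.71 in Cm489. The first array of each line had nearly the same signal, and the difference rested on the second array of each. It came to -1.21 (SE 0.68, limma adjusted p = 0.728), with a 95% interval from -3.09 to 0.67. Both F98902 arrays lay below both Cm489 arrays in 3 of 7 members, beside 20.0% of all tested probe sets.

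In the other 4 members the lines overlapped. The signal of cesa3 was 9.95 and 8.04 in F98902, against 9.45 and 10.91 in Cm489. This gene had the widest range over the 4 arrays among the members, 2.87, and its difference of -1.19 (SE 0.93, limma adjusted p = 0.818) was smaller than the gap between the arrays of either line. The signal of cesa6 was 12.35 and 10.18 in F98902, against 11.70 and 12.70 in Cm489. Here replicate 2 minus replicate 1 in F98902, at -2.17, was larger in size than the line difference of -0.93 (SE 0.93, limma adjusted p = 0.864).

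The members cesa7 and cesa5 had the smallest line differences. The signal of cesa7 was 13.35 and 12.58 in F98902, against 12.42 and 13.78 in Cm489, so the F98902 arrays lay between the Cm489 arrays. Its difference was -0.13 (SE 0.67, limma adjusted p = 0.983), with a 95% interval from -1.99 to 1.73. The signal of cesa5 was 12.30 and 11.81 in F98902, against 12.48 and 12.29 in Cm489. With a range of 0.67 over the 4 arrays, cesa5 was the steadiest member, and its difference was -0.33 (SE 0.43, limma adjusted p = 0.906), with a 95% interval from -1.52 to 0.86.

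**Figure D1:**
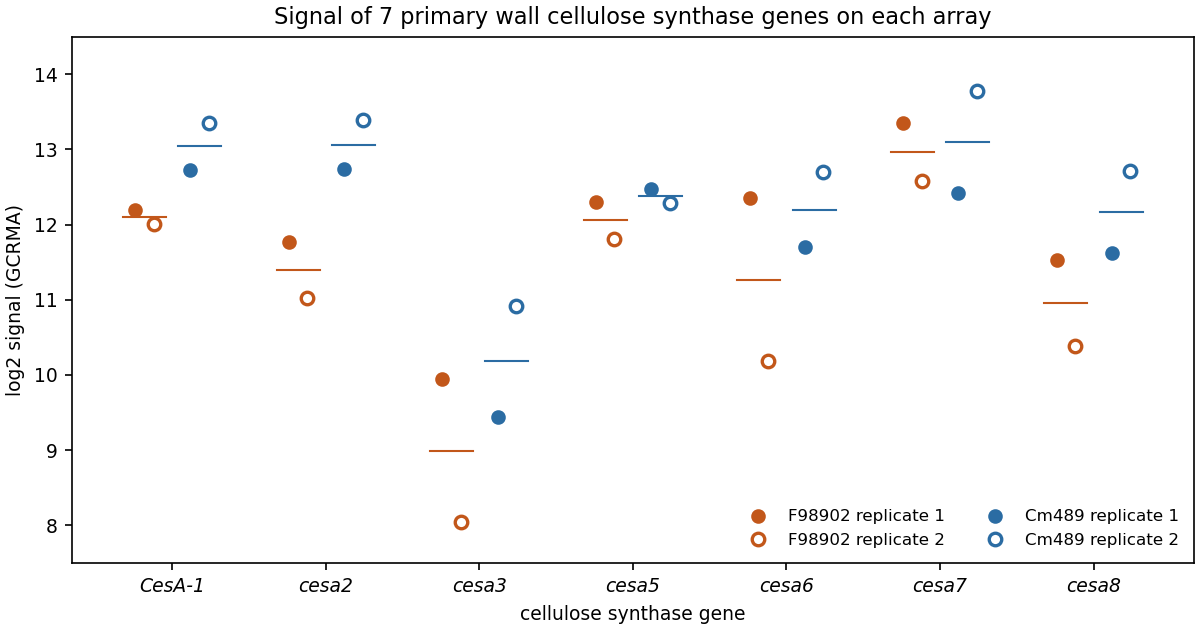
Log2 signal of each of the 7 genes on each array, with F98902 in orange on the left and Cm489 in blue on the right of each gene. Filled points are replicate 1, open points are replicate 2, and bars are means of 2 arrays. The lines are apart for CesA-1, cesa2 and, narrowly, cesa8.

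In the fit across all probe sets 0 of 7 members passed, beside 1.78% of all tested probe sets (0.845% with a lower signal in F98902). Among the 4717 tested probe sets with a mean at least that of the dimmest member, 4 passed, or 0.0848%, and 26 of all 200 that passed were at or above log2 4 on all 4 arrays. The smallest difference among the 200 probe sets that passed was 3.62 in size. Not passing does not show that the lines have equal signal for a member.

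**Figure D2:**
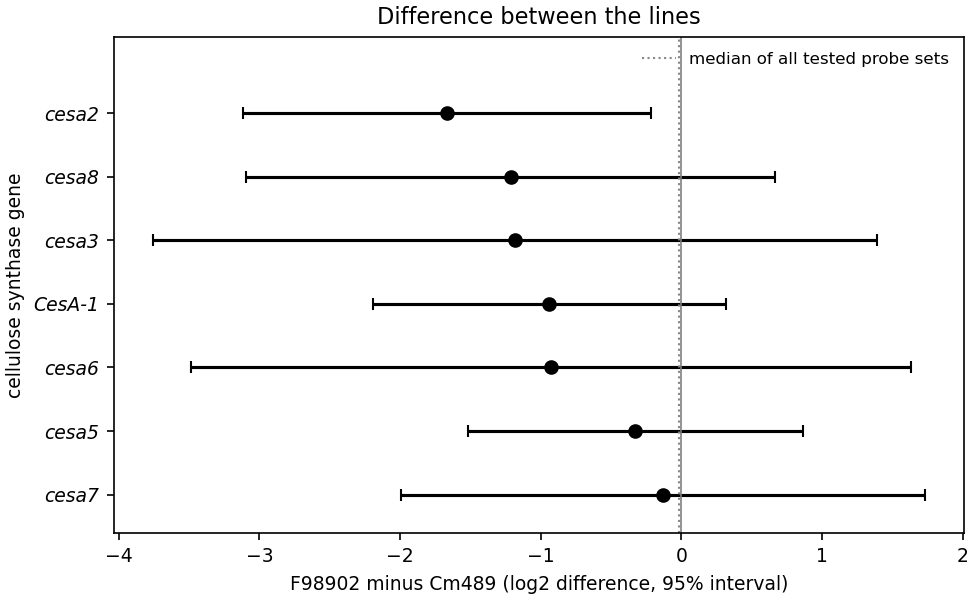
Difference between the lines, F98902 minus Cm489, on the log2 scale for each gene, with 95% intervals from the limma fit (n = 2 arrays per line, not adjusted for multiple tests). All 7 points lie below 0, the interval of cesa2 alone lies wholly below 0, and the dotted line marks the median of all tested probe sets at -0.02.

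The direction depended on 1 array of each line for some members. Leaving out F98902 replicate 2, 5 of 7 members had a lower mean in F98902 and the member median was -0.24. Leaving out Cm489 replicate 2 gave 6 of 7 and -0.45, and leaving out F98902 replicate 1 or Cm489 replicate 1 gave 7 of 7 with medians of -1.79 and -1.43. The difference of cesa2 stayed between -2.04 and -1.30 whichever array was left out, and that of CesA-1 between -1.26 and -0.62. By contrast cesa3 ran from -2.14 to -0.24, cesa8 from -1.79 to -0.64 and cesa5 from -0.57 to -0.08, while cesa6 (0.16 without F98902 replicate 2) and cesa7 (0.25 without F98902 replicate 2, 0.55 without Cm489 replicate 2) turned sign.

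The members shared a pattern within the lines. In F98902 replicate 2 was lower than replicate 1 in 7 of 7 members, with a median replicate 2 minus replicate 1 of -0.77, and in Cm489 replicate 2 was higher in 6 of 7, with a median of 0.9999. The medians over all tested probe sets were 0.05 in F98902 and -0.11 in Cm489. Both directions together were found in 6 of 7 members, beside 32.4% of all tested probe sets. The exception was cesa5, where replicate 2 of Cm489 was lower than replicate 1 by 0.19 on the log2 scale.

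Put as an order of arrays, F98902 replicate 2 was the lowest of the 4 for 6 of 7 members and Cm489 replicate 2 the highest for 6 of 7, beside 22.9% and 21.5% of all tested probe sets. Both held in 5 of 7 members, CesA-1, cesa2, cesa3, cesa6 and cesa8, beside 11.5%. All members were read on the same 4 arrays, so these counts are not independent observations. The largest within-line shift in F98902 was that of cesa6 (-2.17), and the largest in Cm489 was that of cesa3 (1.47).

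**Figure D3:**
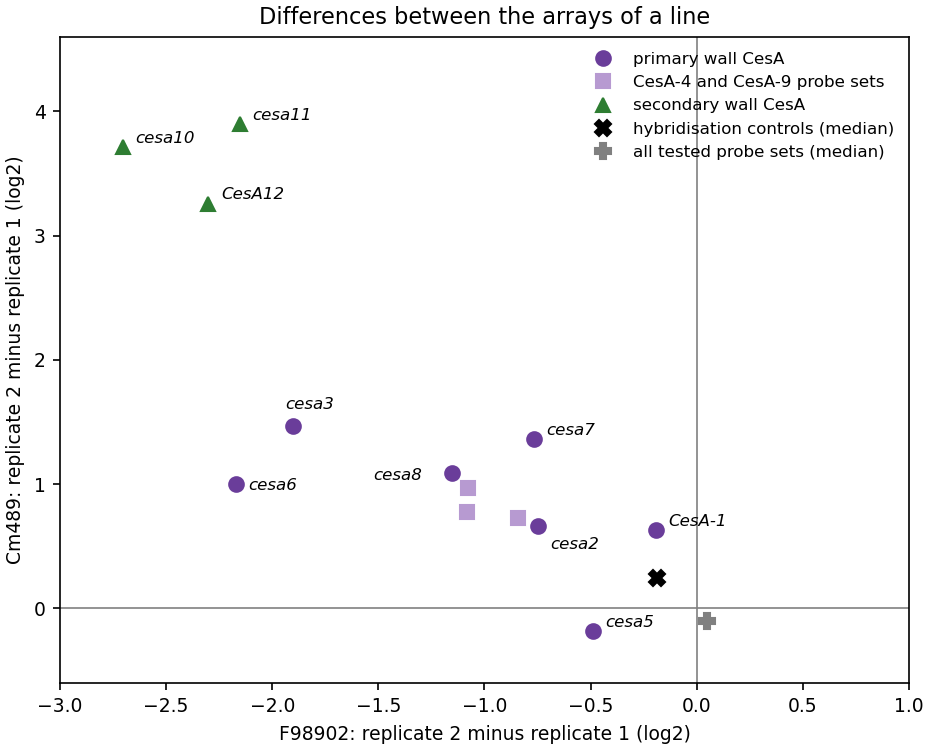
Replicate 2 minus replicate 1 in F98902 (horizontal axis) and in Cm489 (vertical axis), on the log2 scale, for each cellulose synthase probe set and, as medians, for the hybridisation controls and for all tested probe sets. 6 of 7 primary wall genes lie at the upper left, the 3 secondary wall genes lie further out in the same direction, and the median of all tested probe sets lies close to 0 on both axes.

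The variation of a probe set over 4 arrays divides into a part between the lines, a part in which the replicates of the lines shift in opposite directions and a part in which they shift in the same direction. The line part was 84.9% of the sum of squares for cesa2, 80.2% for CesA-1 and 54.1% for cesa8. It was 44.1% for cesa5, 32.8% for cesa3, 23.2% for cesa6 and 1.38% for cesa7. The median was 44.1% over the members and 30.7% over all tested probe sets.

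The opposite shift made up 91.6% for cesa7, 67.6% for cesa6 and 66.1% for cesa3, with a median of 45.9% over the members and 44.6% over all tested probe sets. In cesa5 the shift in the same direction was the largest part, at 46.5% of a small total. The members thus ranged from mostly line difference in cesa2 and CesA-1 to mostly array difference in cesa7. These shares describe 4 arrays and were not tested.

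**Figure D4:**
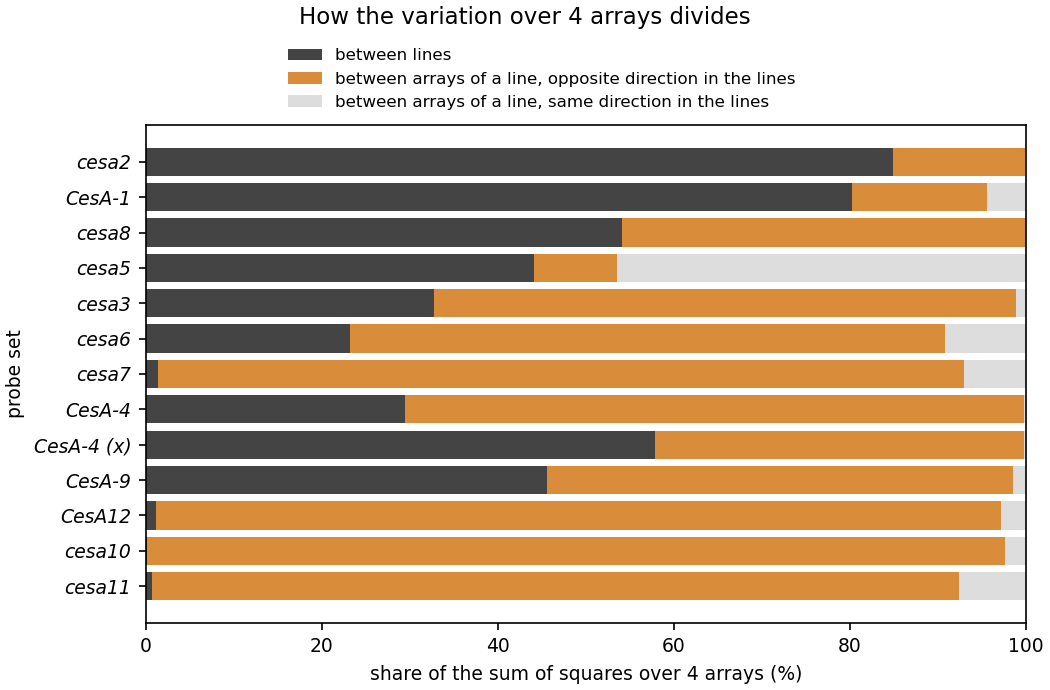
Share of the sum of squares over 4 arrays, in percent, that lies between the lines (dark), between the arrays of a line in opposite directions in the lines (orange) and in the same direction (light grey). The first 7 bars are the members, from cesa2 with 84.9% between the lines to cesa7 with 1.38%; CesA-4 has 2 probe sets, the one marked (x) being designed with probes shared with other sequences, and the last 3 bars are the secondary wall genes.

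The pairs of members with the most alike profiles over the 4 arrays were cesa3 with cesa6, at a root mean square distance of 0.23 between profiles centred on their own means, and cesa3 with cesa8, at 0.30. The pair least alike was cesa3 with cesa5, at 0.88. There were 21 pairs in all. The profile nearest to the member median was that of cesa8 (0.11), and the farthest was that of cesa5 (0.60). Closely related cellulose synthases can share probe sequence, and how far these probe sets read more than 1 gene was not tested.

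CesA-4 and CesA-9, catalytic subunits from the same family, were neither among the members nor in the secondary wall set. They shared the lowest and highest arrays of most members. CesA-9 (LOC541807) was at 13.23 and 12.15 in F98902, against 13.16 and 13.94 in Cm489, a difference of -0.86 (SE 0.61, limma adjusted p = 0.810). CesA-4 (LOC542624) was at 11.32 and 10.24 in F98902, against 10.96 and 11.93 in Cm489, a difference of -0.66 (SE 0.64). In both of these probe sets the lines overlapped. F98902 replicate 2 was the lowest and Cm489 replicate 2 the highest for both genes, and neither gene passed. The other CesA-4 probe set had the same lowest and highest arrays, with a difference of -0.92 (SE 0.55) and the lines apart.

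The secondary wall genes cesa10, cesa11 and CesA12 shared the opposite shift, and their line differences were small beside it. For cesa10 the signal was 12.67 and 9.97 in F98902, against 9.33 and 13.04 in Cm489. The line difference of the 3 genes ran from 0.13 to 0.31 and the line part of their variation had a median of 0.73%, beside 44.1% for the members. Their opposite shift, the mean of the Cm489 shift and the reversed F98902 shift, ran from 2.78 to 3.21 on the log2 scale, while that of the members ran from 0.15 to 1.68. The lowest array was Cm489 replicate 1 for all 3 secondary wall genes and F98902 replicate 2 for 6 of 7 members. The difference between the groups of genes was not tested, since a test over genes chosen by name on shared arrays has no replicates.

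Set against the secondary wall genes array by array, the members' median deviation from their 4-array means was 0.08 and -1.18 in F98902 and 0.06 and 0.96 in Cm489, while that of the secondary wall genes was 1.30 and -0.997 in F98902 and -1.92 and 1.79 in Cm489. The gap between the gene groups was widest on Cm489 replicate 1, at 1.99, and narrowest on F98902 replicate 2, at -0.19. The members' medians near 0 on the first arrays stand for members on both sides, with deviations from -0.46 (cesa2) to 0.62 (cesa6) on F98902 replicate 1 and from -0.61 (cesa7) to 0.51 (cesa2) on Cm489 replicate 1.

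The arrays that were low and high for the members were also low and high for the hybridisation controls, bacterial and phage transcripts (bioB, bioC, bioD and cre) that are added to the hybridisation mix. Of their 27 probe sets 22 were lowest on F98902 replicate 2 and 24 were highest on Cm489 replicate 2. Their mean deviation was 0.03 and -0.18 in F98902 and -0.06 and 0.21 in Cm489. Replicate 2 minus replicate 1 of these controls had a median of -0.19 in F98902 and 0.24 in Cm489, smaller than the member medians of -0.77 and 0.9999. With each array shifted by its mean of these controls, an alternative chosen after their values were seen, the member medians were -0.55 in F98902 and 0.73 in Cm489. With each array shifted to 1 median instead, the member medians were -0.83 in F98902 and 0.93 in Cm489. With quantile normalization they were -0.75 and 1.06. The part of array-wide signal in the members' differences was not tested further.

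**Figure D5:**
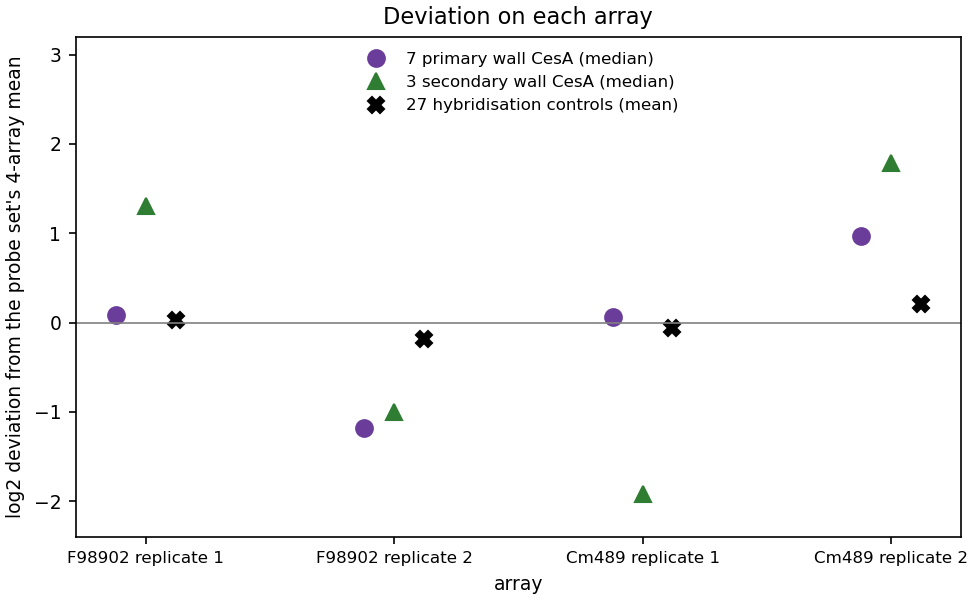
Log2 deviation from the 4-array mean on each array, as the median of the 7 primary wall genes, the median of the 3 secondary wall genes and the mean of the 27 hybridisation controls. The primary wall genes and the controls are lowest on F98902 replicate 2 and highest on Cm489 replicate 2, with member values of -1.18 and 0.96 and control values of -0.18 and 0.21.

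With each array shifted by the hybridisation controls, the median line difference moved to 0.13 for all tested probe sets and to -0.79 for the members. The difference of cesa7 turned sign to 0.02. Such a shift moves the line difference of every probe set by the same amount, so the position of the members relative to the other probe sets is not tested by it.

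Other measures differed between the same arrays. The 5' minus 3' signal of the cyclophilin control, a measure of RNA integrity, was -0.83 and -1.65 in F98902 and -1.61 and -1.02 in Cm489, and that of GAPDH was -2.02 and -3.65 in F98902 and -4.10 and -3.27 in Cm489. For ubiquitin it was -1.60 and -1.36 in F98902 and -1.60 and -1.55 in Cm489. For EF1-alpha it was -1.88 and -2.97 in F98902 and -3.42 and -4.44 in Cm489, lowest on Cm489 replicate 2, where the members were highest. By the labels the RNA extracted was 102 ug and 52 ug for the F98902 arrays and 100 ug for Cm489 replicate 2, and 20 ug of labelled cRNA are given for every array. The part of these measures in the members' differences was not tested.

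Markers of the labelled stage were checked on the same arrays. All 8 probe sets of floral MADS genes, transcription factors of floral organs, were below the limit of 4 for testing on all 4 arrays, between 1.87 and 3.77. Of 6 probe sets of the pollen list 1 was tested, of 8 of the leaf list 6, of 2 of the meristem list 2 and of 6 of the secondary wall list 6. The meristem gene KN-1 was at 10.72 and 9.27 in F98902 and 9.94 and 11.26 in Cm489, and lg3, the other gene of that list, at 9.28 and 9.15 in F98902 and 8.76 and 7.52 in Cm489. The leaf gene rbcS, for the small subunit of Rubisco, was at 12.79 and 10.60 in F98902 and 10.59 and 12.95 in Cm489. The other tested leaf genes had other patterns. The dikinase gene C4ppdkZm1 was at 11.45 and 11.08 in F98902 and 8.76 and 10.23 in Cm489, higher in mean in F98902 with the lines apart. This separation was seen in 3 of the 6 tested leaf probe sets, all of this gene. A further tested probe set of the gene was at 9.33 and 9.05 in F98902 and 9.27 and 8.66 in Cm489, with overlapping lines. ME1, a malic enzyme gene, was at 6.25 and 8.88 in F98902 and 7.43 and 7.85 in Cm489, highest on F98902 replicate 2. As for most members, F98902 replicate 2 was lowest and Cm489 replicate 2 highest for KN-1. This was not so for lg3, and the part of tissue composition in the members' differences was not tested.

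Genes that act beside cellulose synthases were read from lists set by symbol. Sucrose synthases supply UDP-glucose, the substrate of the complex, and microtubules made of tubulin guide its path in the membrane. Of 3 tested sucrose synthase genes 2 had a lower mean in F98902 and 1 a higher mean, with 0 passing. The gene sus2 (LOC542091) was at 8.15 and 8.31 in F98902, against 9.46 and 9.28 in Cm489, a difference of -1.14 (SE 0.40, limma adjusted p = 0.461). The lines were apart, the arrays of each line were nearly equal, and 97.9% of the variation of sus2 lay between the lines. SH-1 (LOC542365), the sucrose synthase of the shrunken1 locus, differed by 0.28 (SE 0.41).

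Of 12 tested tubulin genes 7 had a lower mean in F98902 and 5 a higher mean, with a median difference of -0.02 and 0 passing. Replicate 2 was lower in F98902 and higher in Cm489 in 8 of the 12, beside 32.4% of all tested probe sets. F98902 replicate 2 was lowest and Cm489 replicate 2 highest in 2 of the 12, beside 11.5%. The beta-tubulin gene tub4 (LOC542417) was at 10.87 and 11.24 in F98902, against 12.65 and 13.30 in Cm489, a difference of -1.92 (SE 0.47, limma adjusted p = 0.265). The beta-tubulin gene tub6 (LOC542239) differed by -0.93 (SE 0.53). The brittle stalk2 gene bk2 (LOC778435), whose COBRA-like protein is needed for secondary wall cellulose, was at 11.67 and 10.10 in F98902, against 10.86 and 13.21 in Cm489, a difference of -1.15 (SE 1.07) with overlapping lines. For bk2, as for most members, F98902 replicate 2 was the lowest array and Cm489 replicate 2 the highest. No named probe set matched the cellulose synthase-like, endoglucanase or UDP-glucose pyrophosphorylase symbols of the lists.

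The named genes outside the members with the profiles most like the member median, over 4 arrays and 804 named genes, were GTPase (LOC541930), CesA-9, the plasma membrane aquaporin pip1-2 (LOC541779), HIT2 (LOC541689) and pDCT1 (LOC541643). Their root mean square distances ran from 0.10 to 0.21, beside a median of 0.94 over all named genes. CesA-9, at 0.13, was thus the second nearest. The signal of pip1-2 was 12.51 and 11.29 in F98902, against 12.19 and 13.45 in Cm489. GTPase and HIT2 were dim, with their lowest arrays near the limit of 4 for testing. GTPase was at 4.79 and 3.65 in F98902, against 4.76 and 5.51 in Cm489. HIT2 was at 5.09 and 4.05 in F98902, against 4.81 and 5.77 in Cm489. In all, 119 named genes lay nearer to the member median than cesa5 did. As cesa5 was the farthest member and the exception within Cm489, this count does not show how many genes had the members' pattern.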

How the data were processed

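The deposited table holds 1 log2 value per probe set and array, made by the authors with GCRMA per the submitters' processing notes (background correction, normalization between arrays, summary of probes), version not given in the sources used here. Base 2 was inferred from the range, 1.18 to 15.28. GCRMA pulls dim probe sets to a floor near 2. Signal over that floor and the number of arrays limit the precision.

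Of 17734 probe sets 113 controls were left out, and 11242 with a log2 value of at least 4 on at least 2 arrays were fitted with limma 3.58.1 (lmFit, eBayes) in R 4.3.3 for the contrast F98902 minus Cm489. Tests were two-sided, p-values were adjusted by Benjamini-Hochberg over all 11242, and 0.05 was the threshold. SEs are moderated. The fit was also run on simulated arrays that varied independently of each other, with planted differences larger than that of any member. That run does not show how well differences of the members' size are found on these arrays.

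Names came from GEO's platform annotation, updated by Entrez number to RefSeq (Zm-B73-REFERENCE-NAM-5.0): 1452 probe sets had 1 gene, 1 had several, 16168 were unnamed here and 1377 matched RefSeq. No build is named in the table, so no coordinates are given. Hyphens were ignored in symbols.

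Members and lists were chosen with earlier results of these data known. Named were all members, all secondary wall cellulose synthases and bk2, up to 2 genes with the largest difference of each other list of cellulose-related genes, the 5 genes most like the members, and markers for the tissue check. Where a gene had several probe sets, the one with the highest mean was used. Within-line differences correlated at -0.558 over probe sets between the lines, and replicate numbers were not taken as pairs. Alternatives were other filters, priors and scalings, values raised to log2 4, the replicate block, and leaving out each array.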

Additional observations from a re-analysis of the deposited data

How the results depend on the processing

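None of the 7 members passed the limma test under any alternative; their adjusted p ran from 0.138 to 1. Of 105 member values 56 come from alternatives that leave the difference itself as it is. Of the 49 that could move 45 kept their direction and 4 turned: cesa6 ran from -2.01 to 0.16 and cesa7 from -0.81 to 0.55 over left-out arrays, and cesa7 was 0.0206 when shifted by the hybridisation controls. At an unadjusted p under 0.05, 1 member, cesa2, passed in the main setting, against 0 without variance moderation, with the replicate block, without F98902 replicate 2, without Cm489 replicate 1 and without Cm489 replicate 2. The count over all probe sets was 200 (1183 at an unadjusted p under 0.05), against 79 with no filter, 8 with an intensity-dependent robust prior, 115 with values under log2 4 raised to 4 and 9 with no variance moderation. It was 0 to 0 with each array left out (limma, 786 to 1475 at an unadjusted p under 0.05; a line's lone array is taken to vary as the other line does). With the replicate block it was 0 (776 at an unadjusted p under 0.05, limma), and the labels do not say that numbers pair samples. Crossing the numbers, added after the data were seen, gave 284, and 3 of 7 members then had an unadjusted p under 0.05 in limma. Crossed numbers count the shift in opposite directions as the block rather than as spread. The member differences stayed as they were and their SEs fell, for cesa3 from 0.93 to 0.34 and for cesa5 from 0.43 to 0.37. The cause of that shift was not tested. Of 18 alternative values of the within-line shifts and of the gap to the secondary wall genes 8 are fixed by construction. The 10 that could move kept their sign. The median member shift ran from -0.83 to -0.55 in F98902 and from 0.73 to 1.06 in Cm489 over the alternatives. With quantile normalization the gap on Cm489 replicate 1 was 2.03, beside 1.99. Each member gene has 1 probe set, so averaging probe sets changed nothing.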

Other observations

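Bk2L3 (LOC541793), a brittle stalk2-like gene of the COBRA family, was chosen after its values were seen. Its 2 probe sets were at 12.48 and 12.10 and at 12.63 and 12.13 in F98902, against 13.51 and 13.90 and 13.51 and 13.88 in Cm489. The differences were -1.41 (SE 0.44, limma adjusted p = 0.387) and -1.31 (SE 0.45, limma adjusted p = 0.446), neither of which passed, and 92.9% and 89.8% of the variation over 4 arrays lay between the lines. F98902 replicate 2 was the lowest and Cm489 replicate 2 the highest array for both, as for cesa2 and CesA-1.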
